A study of Mus musculus with 14 samples.

Results

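Matrix metalloproteases (Mmp genes), their Adamts relatives and the tissue inhibitors of metalloproteases (Timp genes) were followed in bulk RNA-seq of transplanted mouse gastric tumours. The genes were chosen by symbol alone: every entry named Mmp, Adamts or Timp followed by a number. This gave 46 of the 24421 entries of the gene table, of which 23 are Mmp, 19 are Adamts and 4 are Timp genes. The tumours fell into 4 groups of 3 libraries each: orthotopic TMPC tumours, which grew in the stomach, and subcutaneous TMPC, TMP and TM tumours, which grew under the skin. All were collected 2 months after transplantation, and polyA RNA was sequenced as paired reads of 150 bp. The labels give the letters T, M, P and C as names only, so the genotypes are used here as names. The host strain, the host sex and the number of founding clones are not stated in the labels, and nothing in the labels says that replicates came from separate animals. The p-values below therefore reflect how far these libraries spread, and some of that spread may be technical. Library totals ran from 16584781 to 21107310 counts. At these depths 3 counts of a gene correspond to between 0.142 and 0.181 CPM, the reads of a gene scaled to a fixed library size.

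Matrix metalloproteases are zinc-dependent enzymes that are mostly secreted or membrane-bound, are made as inactive precursors, and cut collagens, laminin, proteoglycans and other proteins outside cells. Adamts enzymes share this type of catalytic domain and carry thrombospondin repeats, and they trim procollagens, split proteoglycans such as versican and aggrecan, and process von Willebrand factor. Timps bind the active site of these enzymes and block it. In tumours much of this set is made by stromal and immune cells as well as by cancer cells, and several Mmp genes are switched on by the transcription factor AP-1.

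A cluster of 10 Mmp genes lay on chromosome 9, between positions 7272514 and 7699585 of GRCm38 (mm10), a span of 427072 bp in the GENCODE M21 annotation. Their order on the chromosome was Mmp13, Mmp12, Mmp1b, Mmp3, Mmp1a, Mmp10, Mmp8, Mmp27, Mmp20 and Mmp7. RefSeq promoters (GRCm38.p6, 250 bases before to 50 after a gene's start) were at hand for 32 of the 46 genes. The AP-1 motif TGANTCA, where N is any base and which reads the same on both strands, was found in 8 of the 10 clustered genes and in 0 of the 22 other members with a promoter, against 7.81% of all 32851 promoters. The 8 genes were Mmp13, Mmp12, Mmp1b, Mmp3, Mmp1a, Mmp10, Mmp20 and Mmp7, and the match began 35 to 95 bases before the start. Mmp12 and Mmp7 each held the match at one listed start and not at the other. The sequences below are shown because Mmp13, Mmp10, Mmp3 and Mmp7 share the motif and differ in the groups in which they were high. Each covers the 150 bases before the start on the plus strand, with the AP-1 match in capitals, at chr9:7272364-7272513 for Mmp13, chr9:7445672-7445821 for Mmp3, chr9:7502192-7502341 for Mmp10 and chr9:7691940-7692089 for Mmp7.
Mmp13: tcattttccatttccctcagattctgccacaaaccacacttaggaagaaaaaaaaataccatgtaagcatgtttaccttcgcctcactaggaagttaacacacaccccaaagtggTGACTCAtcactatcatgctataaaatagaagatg
Mmp3: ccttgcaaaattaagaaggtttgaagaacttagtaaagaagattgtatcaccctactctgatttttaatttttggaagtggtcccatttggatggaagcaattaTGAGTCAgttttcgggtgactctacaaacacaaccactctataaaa
Mmp10: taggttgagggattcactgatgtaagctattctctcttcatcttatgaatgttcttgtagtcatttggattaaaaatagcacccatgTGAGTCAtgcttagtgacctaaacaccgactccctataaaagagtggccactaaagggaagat
Mmp7: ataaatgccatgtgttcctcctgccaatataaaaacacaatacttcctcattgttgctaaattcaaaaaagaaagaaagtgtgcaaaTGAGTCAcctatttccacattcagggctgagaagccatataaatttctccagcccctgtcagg
All 4 share a copy of the same motif within 63 bases of the start. Mmp3, Mmp10 and Mmp7 have the letters TGAGTCA in it, and Mmp13 has the same letters on the other strand. Of the other motifs searched on both strands, TATAAA was found in 11 of the 32 members against 13.6% of all promoters, CAGGAA (an Ets core) in 11 members against 30.6% of promoters, and GGGANTTCC (an NF-kB site) in 0 members against 1.68% of promoters. A match describes letters in a window and is no evidence of binding.

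A pair of libraries stood apart from their groups, and values that rest on them are given with and without them. Subcutaneous TM replicate 2 correlated with its own group at a mean of 0.775, against 0.880 and 0.874 for the other TM libraries. Its summed epithelial markers reached 244 CPM, against 3999.7 and 4313.7 CPM, and its adipocyte markers 2998 CPM, against 17.3 and 18.3 CPM. It also had 0 counts over the Y-linked genes, which had 493 to 5420 counts in the other 11 libraries. Orthotopic TMPC replicate 3 had a summed hepatocyte marker level of 5156 CPM, against 45.3 and 41.1 CPM in the other orthotopic libraries, and its fibroblast markers summed to 18941 CPM, against 6595 and 7582 CPM. Xist was at 189 to 1435 CPM in the TM libraries and at most at 13.4 CPM in all others, so host sex and the TM label cannot be told apart. The stomach markers of chief, neck and parietal cells were present in the orthotopic libraries, with sums of 115 to 332.5 CPM for chief and neck cells (3 of 4 markers in the table) and of 5.48 to 120.4 CPM for parietal cells. In the subcutaneous libraries these sums were at most 0.897 and 4.15 CPM, with Pgc at 0 in 7 and Atp4b at 0 in 5 of the 9 libraries. In bulk tissue, fewer cells of a type and less RNA per cell cannot be told apart.

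Per kilobase of exon, and so on a scale that allows comparison between genes, the highest members were Timp1 at a mean of 159.6 CPM per kb over the 12 libraries, Timp2 at 90.7, Mmp2 at 83.4, Mmp14 at 57.7, Mmp3 at 53.3 and Mmp13 at 49.5. Without orthotopic replicate 3 the mean of Timp1 was 89.0 and that of Timp2 89.96, and without TM replicate 2 the mean of Mmp3 was 39.3. The order of these genes differed between groups. Timp1 led the orthotopic TMPC tumours at 395 CPM per kb, and at 125 without replicate 3. Timp2 led the subcutaneous TMPC tumours at 79.9 CPM per kb. Mmp13 led the TMP tumours at 104 CPM per kb, where Timp2 stood at 97.1. In TM tumours Timp1 stood at 117 CPM per kb and Timp2 at 104, while Mmp13 stood at 8.77. Without TM replicate 2, Timp1 stood at 47.1 there, Timp2 at 127 and Mmp2 at 129. At the other end, Mmp1a had 0 counts in all 12 libraries, which allows a level of up to 0.142 to 0.181 CPM in each, and Mmp1b, Mmp20, Mmp21 and Mmp24 reached at most 0.362 CPM in any library.

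**Figure D1:**
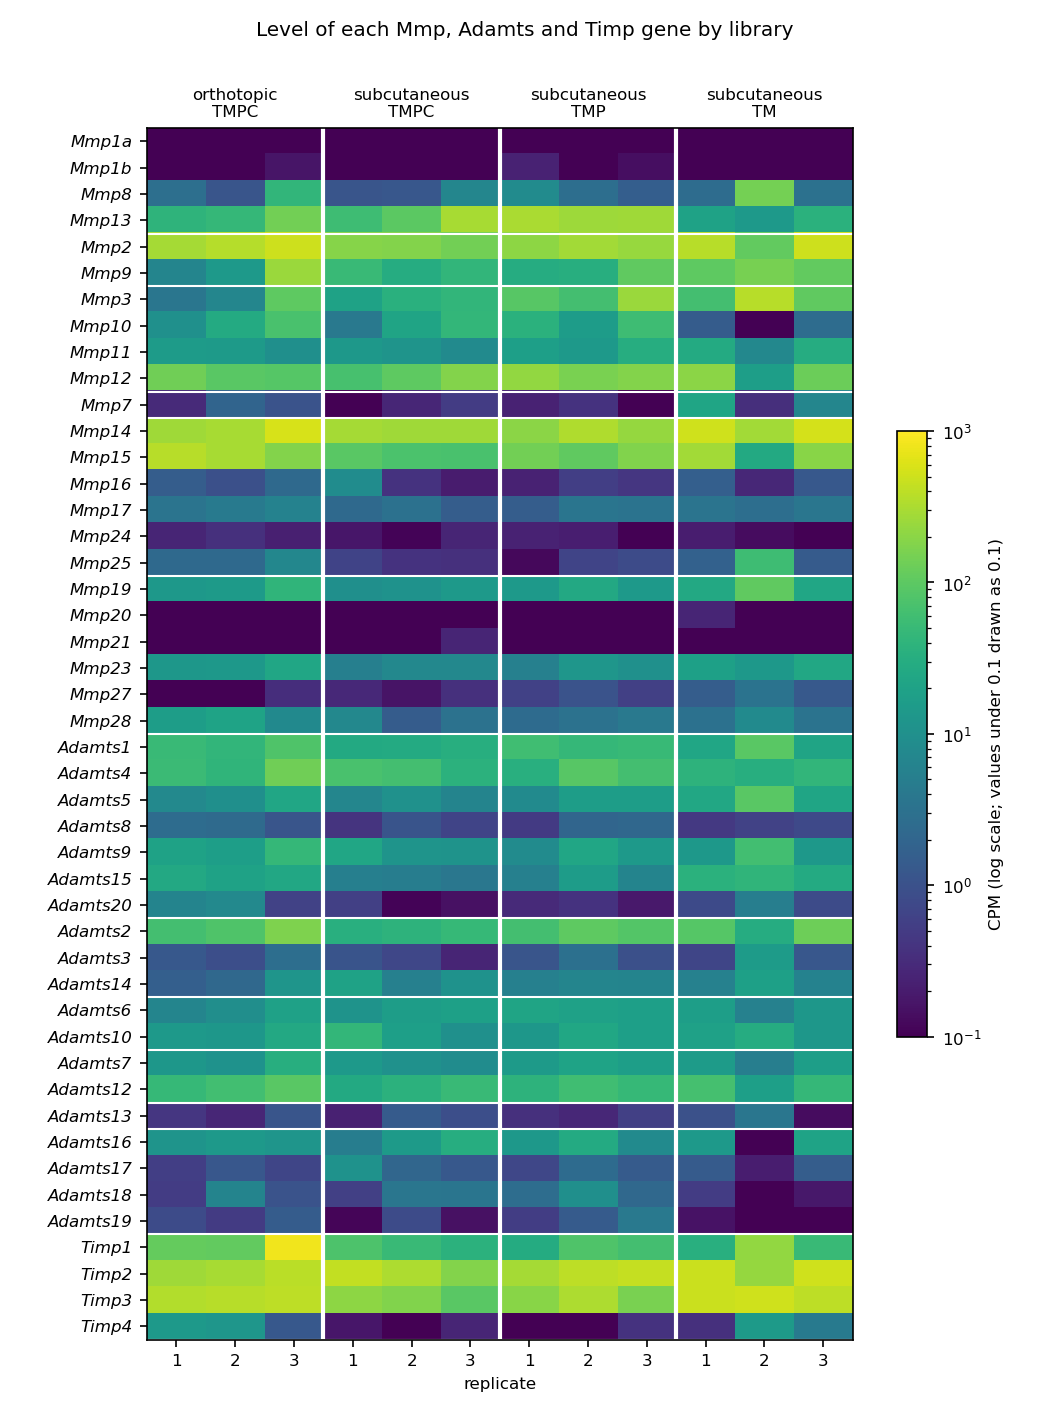
Level of all 46 genes (rows, grouped by role) in the 12 libraries (columns, by group and replicate), in CPM on a log colour scale. Timp2, Timp3, Mmp2 and Mmp14 are bright in all libraries. Mmp10 is dark in the 3 TM libraries, and Mmp13 is darker there than in the TMP libraries. Mmp8 and Mmp25 are brightest in TM replicate 2 (148 and 57.3 CPM).

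Counts of genes past the threshold come from quasi-likelihood fits in edgeR, with p-values adjusted by Benjamini-Hochberg over all genes tested, at an adjusted p under 0.05. Log2 fold changes are given ± their standard error. Between orthotopic and subcutaneous TMPC tumours, which differ in the site of growth, 39 members were tested and 10 rose, which is 25.6%, while none fell. Over all 15123 genes tested, 27.8% passed in either direction and 14% rose, and the median log2 fold change was 0.91 among the members tested and 0.05 among all genes. An unadjusted p under 0.05 was reached by 15 members against 44.1% of all genes, and in 15 members the groups did not overlap, against 48.8% of all genes. Between TMP and TM tumours 4 of 39 members rose and 3 fell, against 27.7% of 15277 genes in either direction, 14.3% that rose and 13.4% that fell. The median log2 fold change was -0.45 among the members and -0.07 among all genes, and the groups did not overlap for 12 members, against 50.6% of all genes. Between TMPC and TM tumours 2 of 39 members rose and 10 fell, against 35.8% of all genes in either direction, 18% that rose and 17.8% that fell, with medians of -0.78 among the members and -0.07 among all genes. An unadjusted p under 0.05 was reached by 17 members against 47.9% of all genes, and 13 members did not overlap between the groups, against 47.5% of all genes. These last 2 comparisons share the TM libraries, and TMPC against TM shares the subcutaneous TMPC libraries with the site comparison. Adamts15, Adamts20, Mmp23, Mmp25 and Timp3 were called both between the sites and in TMPC against TM tumours, so these counts are not independent. Between TMPC and TMP tumours 0 of 39 members passed, as did 0% of all genes. There 5 members had an unadjusted p under 0.05 (Mmp3, Mmp27, Adamts2, Adamts15 and Adamts19), against 3.04% of all genes, and DESeq2 called 0 members and 17 genes. The groups did not overlap for 10 members, against 12.5% of all genes, 30 of the 39 log2 fold changes were negative, and the medians were -0.49 among the members and 0.01 among all genes. The shares called among members were near or below those of all genes in either direction. The share that rose with the orthotopic site and the share that fell in TMPC against TM tumours were above the background. Both shares count members that passed the filter on low counts only through groups where they were high, and such members had to differ. Between the sites these were Timp4 (3, 0 and 5 counts in subcutaneous TMPC tumours), Adamts20 (10, 2 and 3) and Mmp25 (11, 7 and 7). In TMPC against TM tumours they were Adamts20 and Mmp27. The excess is therefore not read as a result about the members.

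**Figure D2:**
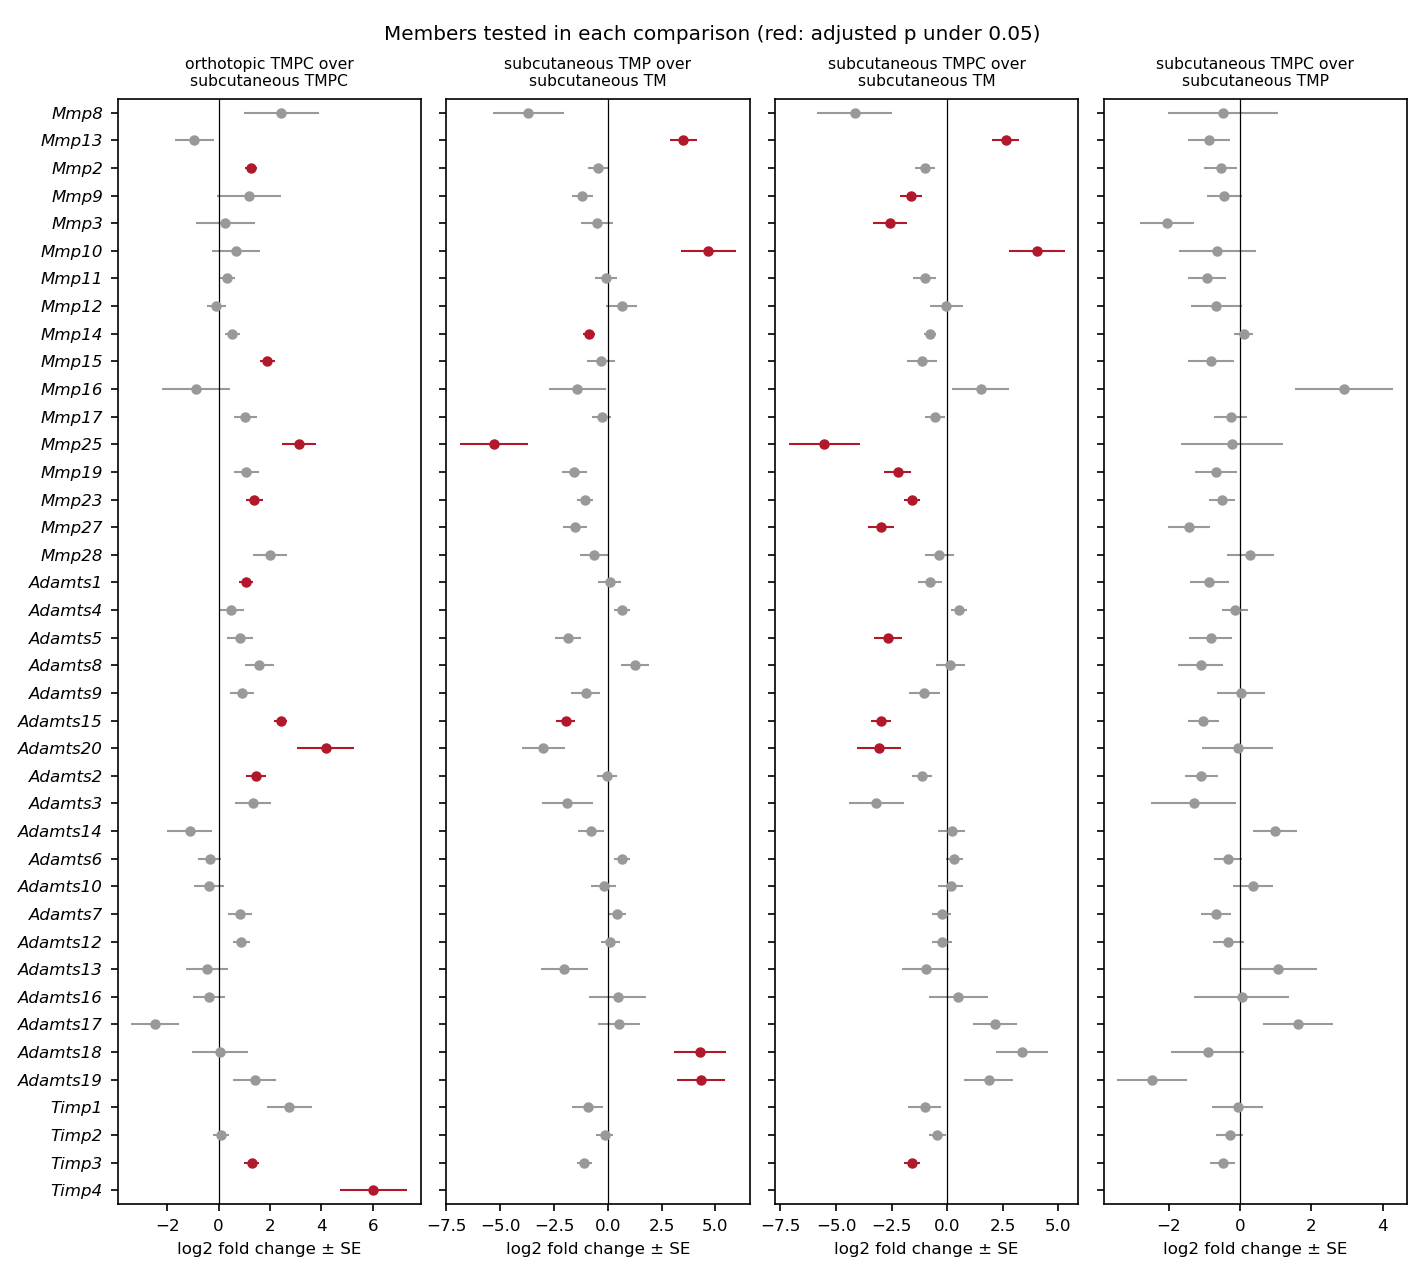
Log2 fold change with its standard error (horizontal axis) for the members tested in each of the 4 comparisons, in red where the adjusted p was under 0.05. All 10 red points lie right of 0 for orthotopic over subcutaneous TMPC, 10 of 12 lie left of 0 for TMPC over TM, and none is red for TMPC over TMP.

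Among the clustered genes, Mmp13 (collagenase-3, which cuts fibrillar collagen) separated the genotypes. It was at 56.3, 98.2 and 299.6 CPM in subcutaneous TMPC tumours, at 308, 258 and 268 CPM in TMP tumours, and at 20.2, 13.9 and 36.3 CPM in TM tumours. Every TMPC and TMP library lay above every TM library. Mmp13 rose in TMP over TM tumours (log2 fold change 3.51 ± 0.64 SE, adjusted p = 0.00841) and in TMPC over TM tumours (2.63 ± 0.62, adjusted p = 0.0139), and both calls held in all 9 fits that left out a library. In orthotopic TMPC tumours it was at 40.4, 46.1 and 141 CPM, a range that overlapped that of the subcutaneous TMPC tumours. The 4 squamous epithelial markers (Krt5, Krt14, Krt6a and Trp63), none at 0, summed to 656, 2782 and 7383 CPM in subcutaneous TMPC tumours, to 4849, 4145 and 3926 CPM in TMP tumours, and to 1271, 21.4 and 1926 CPM in TM tumours. In orthotopic TMPC tumours they summed to 3055, 2639 and 1784 CPM. Among the subcutaneous TMPC and the TM libraries the sum had the order of Mmp13. Among the orthotopic TMPC libraries it had the reverse order, and among the TMP libraries the orders differed. Of the 4 markers, 0 passed in any comparison. Their part in the values of Mmp13 and of Mmp10, described next, was not tested.

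Mmp10 (stromelysin-2, which cuts non-fibrillar matrix proteins and activates other Mmp precursors) was likewise lowest in TM tumours. It was at 4.21, 21.8 and 44.2 CPM in subcutaneous TMPC tumours, at 36.2, 16.2 and 56.8 CPM in TMP tumours, and at 1.46, 0 and 2.57 CPM in TM tumours. No TM library overlapped the other subcutaneous groups. It rose in TMP over TM tumours (4.68 ± 1.27, adjusted p = 0.0301) and in TMPC over TM tumours (4.04 ± 1.24, adjusted p = 0.0355). The calls missed the threshold in 5 of 9 and in 6 of 9 fits that left out a library (adjusted p up to 0.0866 and 0.102). In orthotopic TMPC tumours Mmp10 was at 10.3, 27.7 and 71.1 CPM and did not separate from the subcutaneous TMPC tumours.

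Mmp3 (stromelysin-1, a close relative of Mmp10) did not follow that order. It was at 3.66, 6.92 and 102 CPM in orthotopic TMPC tumours, at 20.1, 34.5 and 42.7 CPM in subcutaneous TMPC tumours, at 89.8, 63.1 and 248 CPM in TMP tumours, and at 64.9, 373 and 104 CPM in TM tumours. All subcutaneous TMPC libraries lay below all TMP and TM libraries. Mmp3 fell in TMPC against TM tumours (-2.56 ± 0.77, adjusted p = 0.0339). The call was lost without TM replicate 2, which had the highest level (-1.41, adjusted p = 0.0792), and in 5 of 9 such fits in all (adjusted p up to 0.0965). Between the sites the value turned on orthotopic replicate 3: the log2 fold change was 0.26 ± 1.16 with it (adjusted p = 0.880) and -2.56 ± 0.48 without it (adjusted p = 0.0153).

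Mmp27, a little-studied member of the stromelysin-like group, lay near the detection limit. It was at 0.288, 0.163 and 0.359 CPM in subcutaneous TMPC tumours, at 0.602, 1.04 and 0.569 CPM in TMP tumours, and at 1.51, 3.38 and 1.31 CPM in TM tumours. The 3 groups did not overlap. It fell in TMPC against TM tumours (-2.97 ± 0.60, adjusted p = 0.00821) and kept that call in all 9 fits that left out a library. The call rests on 5, 3 and 7 counts in subcutaneous TMPC tumours and 29, 49 and 29 counts in TM tumours. Mmp27 did not pass the filter on low counts between the sites. Its entry into this test thus came through the TM and TMP libraries, where it was higher.

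Mmp7 (matrilysin, an epithelial Mmp) did not pass the filter on low counts in any comparison. It was at 0.298, 1.94 and 1.07 CPM in orthotopic TMPC tumours, at most at 0.512 CPM in subcutaneous TMPC and at most at 0.385 CPM in TMP tumours, and at 22.2, 0.345 and 6.81 CPM in TM tumours. The TM level was carried by replicates 1 and 3, and TM replicate 2 was no higher than the other genotypes. Replicates 1 and 3 had epithelial marker sums of 3999.7 and 4313.7 CPM. The orthotopic TMPC libraries had sums of 4414 to 7204 CPM beside their lower Mmp7. The part of epithelial cells in the Mmp7 values was not tested. Without the filter it fell in TMP against TM tumours (-5.43 ± 1.58, adjusted p = 0.0437) and in TMPC against TM tumours (-5.18 ± 1.55, adjusted p = 0.0382), and it passed no such test between the sites (2.04 ± 1.19, adjusted p = 0.256). Without TM replicate 2, its lowest TM library, it passed the filter only through TM replicates 1 and 3. In that fit it fell in both TMP (-6.03, adjusted p = 0.00623) and TMPC tumours (-5.75, adjusted p = 0.00457). Having entered through the high libraries alone, it had to differ there, and no conclusion is drawn from that fit.

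Mmp12 (macrophage elastase) and Mmp8 (neutrophil collagenase) passed no comparison. Mmp12 was at 135, 95.6 and 89.1 CPM in orthotopic TMPC tumours, at 68.1, 103 and 183 CPM in subcutaneous TMPC tumours, at 225, 154 and 180.0 CPM in TMP tumours, and at 204, 17.3 and 128 CPM in TM tumours. The groups overlapped, with TM replicate 2 the lowest library of all. Mmp8 was at 2.90, 1.13 and 43.4 CPM in orthotopic TMPC tumours, between 1.15 and 6.76 CPM in subcutaneous TMPC tumours, between 1.56 and 8.42 CPM in TMP tumours, and at 2.55, 148 and 3.16 CPM in TM tumours. Its high values were thus those of the 2 libraries that stood apart.

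**Figure D3:**
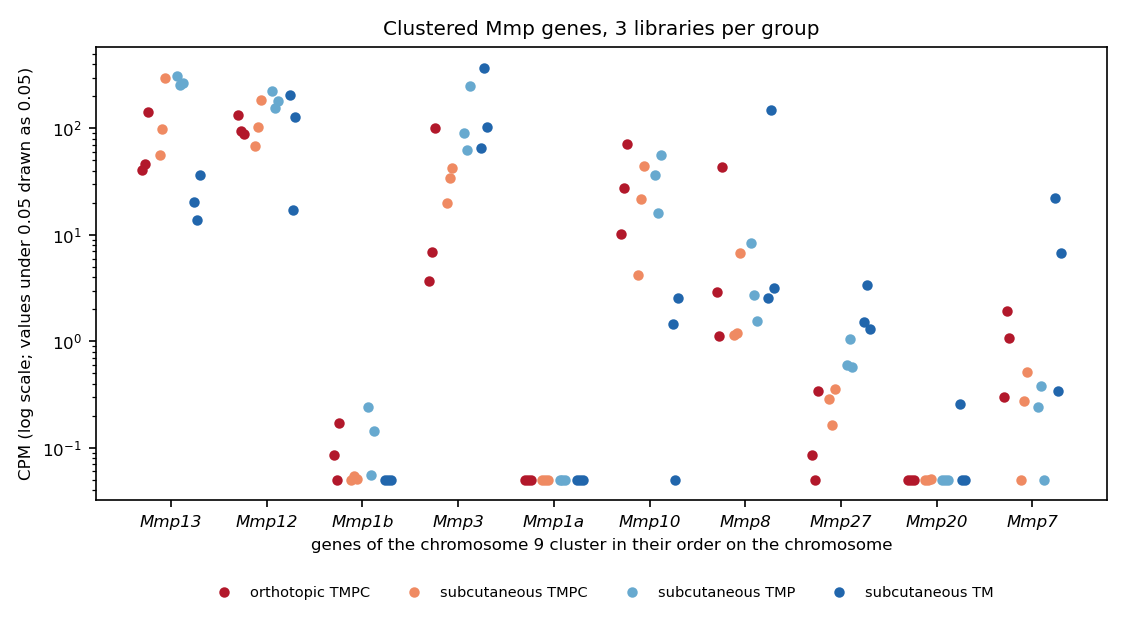
The 10 clustered Mmp genes in chromosomal order (horizontal axis) with the CPM of each library on a log axis, coloured by group. Mmp13 and Mmp10 are lowest in the 3 TM libraries (at most 36.3 and 2.57 CPM), whereas Mmp27 is highest there (1.31 to 3.38 CPM).

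The gelatinases Mmp2 and Mmp9 cut denatured collagen and basement membrane collagen. Mmp2, which is made mainly by fibroblasts, was at 287, 362 and 503 CPM in orthotopic TMPC tumours, at 185, 181 and 140.0 CPM in subcutaneous TMPC tumours, at 209, 283 and 245 CPM in TMP tumours, and at 376, 110.0 and 493 CPM in TM tumours. Every orthotopic library lay above every subcutaneous TMPC library. Mmp2 rose with the orthotopic site (1.25 ± 0.24, adjusted p = 0.0164, and 1.00 without orthotopic replicate 3), a call lost in 3 of 6 fits that left out a library (adjusted p up to 0.0568). Against TM tumours it did not pass in TMP (-0.45 ± 0.45) or TMPC tumours (-1.01 ± 0.45). Without TM replicate 2 both passed (-0.86, adjusted p = 0.0151, and -1.39, adjusted p = 0.00166).

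Mmp9 (made by neutrophils and macrophages among others) was at 6.60, 14.6 and 246 CPM in orthotopic TMPC tumours, at 50.7, 29.4 and 43.3 CPM in subcutaneous TMPC tumours, at 30.3, 32.1 and 104 CPM in TMP tumours, and at 103, 149 and 108 CPM in TM tumours. All TM libraries lay above all subcutaneous TMPC libraries. In TMPC against TM tumours it fell (-1.61 ± 0.49, adjusted p = 0.0345), a call lost in 6 of 9 fits that left out a library (adjusted p up to 0.122). With orthotopic replicate 3 the site difference was 1.18 ± 1.23 (adjusted p = 0.499), and without it Mmp9 was lower in the orthotopic tumours (-1.91 ± 0.43, adjusted p = 0.0251).

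Mmp8, Mmp9 and Mmp25 are known products of neutrophils, so the 10 neutrophil markers, all listed in the table, are given beside them. Their summed level was 1007 to 1636 CPM in orthotopic TMPC tumours, 15.5 to 176 CPM in subcutaneous TMPC tumours, 224 to 418 CPM in TMP tumours and 2688 to 4889 CPM in TM tumours. Ltf, which epithelia also make, was most of the sum in 9 of the 12 libraries, and in TM replicate 2 it was 386 CPM, beside 1549 CPM of S100a9 and 1200.3 CPM of S100a8. The granule gene Ngp was at 105 CPM in orthotopic replicate 3 and at 459.9 CPM in TM replicate 2, and at most at 3.95 CPM elsewhere, with 0 in subcutaneous TMPC replicate 2 and TMP replicate 2. Elane was at 0 in 7 libraries and Mpo in 1. Of the 7 neutrophil markers tested, 1 rose with the orthotopic site, 4 fell in TMP and 6 fell in TMPC tumours against TM. The 8 macrophage markers summed to 1650.0 to 2278 CPM, 816 to 1514 CPM, 725 to 1382 CPM and 3370.0 to 6714 CPM in orthotopic TMPC, subcutaneous TMPC, TMP and TM tumours, none at 0 in any library, and 7 of 8 fell in both TMP and TMPC against TM tumours. The part of these cells in the Mmp values was not tested.

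Of the membrane-bound Mmps, Mmp14 (MT1-MMP, which activates the Mmp2 precursor) was high throughout. It was at 274, 300.2 and 578 CPM in orthotopic TMPC tumours, at 292, 274 and 268 CPM in subcutaneous TMPC tumours, at 203, 332 and 237 CPM in TMP tumours, and at 523, 284 and 559.7 CPM in TM tumours. The groups overlapped. It fell in TMP against TM tumours by a small margin (-0.87 ± 0.28, adjusted p = 0.0475), a call that was lost in 8 of 9 fits that left out a library (adjusted p up to 0.187) and kept without TM replicate 2 (-1.11, adjusted p = 0.00667).

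Mmp15 (MT2-MMP) was at 373, 299.8 and 178 CPM in orthotopic TMPC tumours, at 95.1, 72.8 and 71.6 CPM in subcutaneous TMPC tumours, at 141, 106 and 175 CPM in TMP tumours, and at 282, 26.8 and 197 CPM in TM tumours. The lowest orthotopic library was above the highest subcutaneous TMPC library. With the orthotopic site it rose (1.90 ± 0.30, adjusted p = 0.0112), a call lost in 1 of 6 fits that left out a library (adjusted p = 0.0514 without orthotopic replicate 2). Against TM tumours it did not pass (TMP -0.30 ± 0.65, TMPC -1.13 ± 0.66), while without TM replicate 2 it was lower in TMP (-0.80, adjusted p = 0.0419) and in TMPC tumours (-1.61, adjusted p = 0.00228). The 7 epithelial markers summed to 4414 to 7204 CPM in orthotopic TMPC tumours, 1017 to 3384 CPM in subcutaneous TMPC tumours, 2667 to 4105 CPM in TMP tumours and 244 to 4314 CPM in TM tumours, none at 0, and 3 of 7 rose with the orthotopic site. Their part in the Mmp15 values was not tested.

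Mmp25 (MT6-MMP, a GPI-anchored leukocyte enzyme) was at 2.30, 2.35 and 7.0005 CPM in orthotopic TMPC tumours, at 0.634, 0.381 and 0.359 CPM in subcutaneous TMPC tumours, at 0.120, 0.659 and 0.806 CPM in TMP tumours, and at 1.72, 57.3 and 1.40 CPM in TM tumours. Orthotopic and TM libraries all lay above the subcutaneous TMPC and TMP libraries. In orthotopic over subcutaneous TMPC tumours it rose (3.13 ± 0.65, adjusted p = 0.0193), and 2.39 remained without orthotopic replicate 3, while 3 of 6 fits that left out a library lost the call (adjusted p up to 0.0736). Its fall in TMP (-5.30 ± 1.57, adjusted p = 0.0394) and in TMPC against TM tumours (-5.53 ± 1.60, adjusted p = 0.0287) rested on TM replicate 2. Without that library the values were -1.56 (adjusted p = 0.126) and -1.78 (adjusted p = 0.0793), and the calls were lost in 7 and in 4 of 9 such fits in all.

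Among the remaining secreted and membrane Mmps, Mmp23 (a small Mmp with a transmembrane precursor) was at 13.2, 13.5 and 23.0 CPM in orthotopic TMPC tumours, at 5.30, 7.24 and 7.27 CPM in subcutaneous TMPC tumours, at 5.47, 12.6 and 10.0 CPM in TMP tumours, and at 18.7, 13.7 and 24.7 CPM in TM tumours. Subcutaneous TMPC tumours were below both orthotopic TMPC and TM tumours, without overlap. It rose with the orthotopic site (1.39 ± 0.34, adjusted p = 0.0294, lost in 5 of 6 fits that left out a library, adjusted p up to 0.0817). It fell in TMPC against TM tumours (-1.59 ± 0.37, adjusted p = 0.0139), a call lost in 1 of 9 such fits, without subcutaneous TMPC replicate 2.

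Mmp19, a widely made secreted Mmp, was at 13.4, 15.3 and 41.7 CPM in orthotopic TMPC tumours, at 9.69, 10.9 and 14.1 CPM in subcutaneous TMPC tumours, at 14.7, 26.0 and 14.8 CPM in TMP tumours, and at 25.6, 105 and 23.5 CPM in TM tumours. In TMPC against TM tumours it fell (-2.23 ± 0.61, adjusted p = 0.0243). Without TM replicate 2 the value was -1.11 and still passed (adjusted p = 0.0224), and the call was lost when any of the subcutaneous TMPC libraries was left out (adjusted p up to 0.0784). Mmp28 (epilysin) was at 16.9, 20.8 and 7.90 CPM in orthotopic TMPC tumours and at 7.38, 1.47 and 3.18 CPM in subcutaneous TMPC tumours. The groups did not overlap, and the difference did not pass (1.99 ± 0.67, adjusted p = 0.0671), though it did without orthotopic replicate 3 (2.29, adjusted p = 0.0468), without subcutaneous TMPC replicate 1, in DESeq2 and with all 12 libraries in the fit. Mmp11, Mmp16 and Mmp17 passed no comparison, and without TM replicate 2 Mmp11 was lower in TMPC than in TM tumours (-1.39, adjusted p = 0.0149).

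Among the proteoglycan-cleaving Adamts enzymes, Adamts15, which splits versican and aggrecan, passed in 3 comparisons. It was at 26.2, 20.4 and 24.7 CPM in orthotopic TMPC tumours, at 5.25, 4.90 and 3.84 CPM in subcutaneous TMPC tumours, at 5.53, 16.4 and 6.31 CPM in TMP tumours, and at 36.4, 40.9 and 28.0 CPM in TM tumours. No subcutaneous TMPC or TMP library reached the orthotopic or TM libraries. With the orthotopic site it rose (2.42 ± 0.26, adjusted p = 0.00818) and kept that call in all 6 fits that left out a library. It fell in TMPC against TM tumours (-2.98 ± 0.46, adjusted p = 0.00289, kept in all 9 such fits) and in TMP against TM tumours (-1.95 ± 0.44, adjusted p = 0.0165, lost in 2 of 9, adjusted p up to 0.0590).

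Adamts5, the main aggrecanase of mouse cartilage, was at 7.75, 9.77 and 23.1 CPM in orthotopic TMPC tumours, at 6.86, 10.7 and 6.30 CPM in subcutaneous TMPC tumours, at 8.24, 17.1 and 16.8 CPM in TMP tumours, and at 25.4, 96.1 and 22.5 CPM in TM tumours. All subcutaneous TMPC libraries were below all TM libraries. In TMPC against TM tumours it fell (-2.67 ± 0.63, adjusted p = 0.0140), with -1.62 (adjusted p = 0.0104) without TM replicate 2, and the call was lost in 1 of 9 fits, without subcutaneous TMPC replicate 3 (adjusted p = 0.0531). Adamts20, which is mutated in the belted coat colour mice, was at 6.43, 7.55 and 0.621 CPM in orthotopic TMPC tumours, at 0.577, 0.109 and 0.154 CPM in subcutaneous TMPC tumours, at 0.190 to 0.385 CPM in TMP tumours, and at 0.781, 5.17 and 0.812 CPM in TM tumours. In orthotopic over subcutaneous TMPC tumours it rose (4.17 ± 1.12, adjusted p = 0.0377, lost in 4 of 6 fits, adjusted p up to 0.121). Its fall in TMPC against TM tumours (-3.06 ± 0.99, adjusted p = 0.0428) was lost in 6 of 9 fits, among them the fit without TM replicate 2 (-1.53, adjusted p = 0.140).

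Adamts1, which cleaves versican, was at 51.8, 42.4 and 78.8 CPM in orthotopic TMPC tumours, at 27.2, 27.9 and 31.9 CPM in subcutaneous TMPC tumours, at 59.5, 47.0 and 50.4 CPM in TMP tumours, and at 23.5, 95.9 and 22.0 CPM in TM tumours. The orthotopic libraries were all above the subcutaneous TMPC libraries. It rose with the orthotopic site (1.06 ± 0.26, adjusted p = 0.0283), a call lost in 5 of 6 fits that left out a library (adjusted p up to 0.0941) and kept without orthotopic replicate 3 (0.76). In TMP against TM tumours the value was 0.08 ± 0.53, and 1.17 without TM replicate 2 (adjusted p = 0.00323). Adamts4, Adamts8 and Adamts9 passed no comparison. Their group means ran from 37.7 to 77.1 CPM for Adamts4, from 0.619 to 2.07 CPM for Adamts8 and from 15.3 to 29.8 CPM for Adamts9. The orthotopic TMPC mean of Adamts4 was 46.7 CPM without replicate 3, and the TM mean of Adamts9 was 13.7 CPM without replicate 2.

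Of the Adamts enzymes that remove the amino-terminal propeptide of procollagen, Adamts2 was at 63.1, 79.5 and 169.6 CPM in orthotopic TMPC tumours, at 34.0, 38.5 and 47.1 CPM in subcutaneous TMPC tumours, at 63.8, 103 and 86.3 CPM in TMP tumours, and at 89.2, 29.9 and 133 CPM in TM tumours. Subcutaneous TMPC tumours were below the orthotopic and the TMP tumours, without overlap. Adamts2 rose with the orthotopic site (1.45 ± 0.39, adjusted p = 0.0375), a call lost in 4 of 6 fits that left out a library (adjusted p up to 0.113), and without orthotopic replicate 3 the value was 0.89 (adjusted p = 0.0273). In TMPC against TM tumours it did not pass (-1.13 ± 0.46, adjusted p = 0.0867), and without TM replicate 2 it did (-1.50, adjusted p = 0.00323). Adamts3 and Adamts14 passed no comparison, though without orthotopic replicate 3 Adamts14 was lower in the orthotopic tumours (-2.61, adjusted p = 0.0324).

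Adamts18 and Adamts19, whose substrates are less well known, rose in TMP over TM tumours at low levels. Adamts18 was at 2.65, 9.94 and 2.23 CPM in TMP tumours and at 0.521, 0 and 0.181 CPM in TM tumours (4.29 ± 1.21, adjusted p = 0.0334, lost in 6 of 9 fits that left out a library, adjusted p up to 0.107). Adamts19 was at 0.541, 1.43 and 4.08 CPM in TMP tumours and at 0.156, 0.0690 and 0.0451 CPM in TM tumours, at or under the level of 3 counts (4.34 ± 1.11, adjusted p = 0.0244, lost in 3 of 9 such fits, adjusted p up to 0.0824). Neither pair of groups overlapped, and the fitted folds depend on near-zero TM counts. Adamts6, Adamts7, Adamts10, Adamts12, Adamts13 (the von Willebrand factor protease), Adamts16 and Adamts17 passed no comparison.

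The inhibitors differed in which group was highest. Timp1 was at 114, 108 and 831 CPM in orthotopic TMPC tumours, at 75.8, 51.1 and 37.5 CPM in subcutaneous TMPC tumours, at 29.0, 79.2 and 63.4 CPM in TMP tumours, and at 33.1, 228 and 50.5 CPM in TM tumours. The 3 orthotopic libraries lay above the subcutaneous TMPC libraries, with replicate 3 far above the others. The site difference did not pass with it (2.75 ± 0.88, adjusted p = 0.0589) and passed at a smaller size without it (1.08 ± 0.30, adjusted p = 0.0413). Against TM tumours Timp1 passed in neither TMP (-0.94 ± 0.73) nor TMPC tumours (-1.01 ± 0.73), and without TM replicate 2 both values turned positive (0.42 and 0.36).

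Timp3, which is bound to the matrix and also inhibits Adamts enzymes, was at 351, 374 and 402 CPM in orthotopic TMPC tumours, at 213, 175 and 95.9 CPM in subcutaneous TMPC tumours, at 193, 325 and 155 CPM in TMP tumours, and at 476, 509.7 and 406 CPM in TM tumours. Orthotopic TMPC and TM libraries were all above every TMPC and TMP library from under the skin. With the orthotopic site it rose (1.29 ± 0.29, adjusted p = 0.0233, lost in 3 of 6 fits that left out a library, adjusted p up to 0.0775). It fell in TMPC against TM tumours (-1.59 ± 0.36, adjusted p = 0.0122) in all 9 such fits, and just missed the threshold in TMP against TM tumours (-1.10 ± 0.35, adjusted p = 0.0501).

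Timp2, an inhibitor that also takes part in Mmp2 activation by Mmp14, passed no comparison. It was at 268, 299.9 and 386 CPM in orthotopic TMPC tumours, at 426, 327 and 181 CPM in subcutaneous TMPC tumours, at 289.8, 401 and 444 CPM in TMP tumours, and at 481, 229.9 and 509 CPM in TM tumours. All groups overlapped (site 0.10 ± 0.32, TMP against TM -0.15 ± 0.38, TMPC against TM -0.44 ± 0.38). Timp4 was at 14.3, 12.5 and 1.24 CPM in orthotopic TMPC tumours, at 0.173, 0 and 0.256 CPM in subcutaneous TMPC tumours, at 0, 0.0549 and 0.379 CPM in TMP tumours, and at 0.365, 15.3 and 4.33 CPM in TM tumours. In orthotopic over subcutaneous TMPC tumours it rose (6.03 ± 1.31, adjusted p = 0.0217, lost in 5 of 6 fits that left out a library, adjusted p up to 0.0670). Its entry into that test came through the orthotopic libraries, where it was higher, and it did not pass the filter on low counts among the subcutaneous libraries. Without the filter Timp4 fell in TMP (-5.40 ± 1.63, adjusted p = 0.0495) and in TMPC (-5.47 ± 1.64, adjusted p = 0.0387) against TM tumours, where TM replicate 2 was the highest library. The exons of Timp3 and Timp4 overlap those of Syn3 and Syn2 on the opposite strand, by 1733 of 8144 and 90 of 5894 exon bases. In all, 13 members (also Adamts4, Adamts7, Adamts8, Adamts9, Mmp1b, Mmp7, Mmp11, Mmp12, Mmp19, Mmp24 and Mmp28) share exon sequence with a gene on the other strand. Reads within the shared bases cannot be told apart without the strand setting, which the labels do not state.

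Mmp2, Mmp14, Timp2 and Timp3 are known products of fibroblasts. The 10 fibroblast markers, all in the table and none at 0, summed to 6595 to 18941 CPM in orthotopic TMPC tumours, 3666 to 5639 CPM in subcutaneous TMPC tumours, 4305 to 9882 CPM in TMP tumours and 3639 to 15822 CPM in TM tumours, where the sum was lowest in replicate 2. That order was the order of the collagens, while 5 of the 10 markers were highest in TM replicate 2, among them Dcn at 1219 CPM, against 222 and 245 CPM in the other TM libraries. Of these 10 markers, 2 rose with the orthotopic site, 2 fell in TMP and 2 fell in TMPC tumours against TM. The 6 smooth muscle and pericyte markers, none at 0, summed to 413 to 1007 CPM in orthotopic TMPC tumours, 215 to 321 CPM in subcutaneous TMPC tumours, 229.5 to 289.7 CPM in TMP tumours and 185 to 352 CPM in TM tumours, and 3 of 6 rose with the orthotopic site. The part of these cells, and of the chief, neck and parietal cells, in the values of these genes was not tested.

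**Figure D4:**
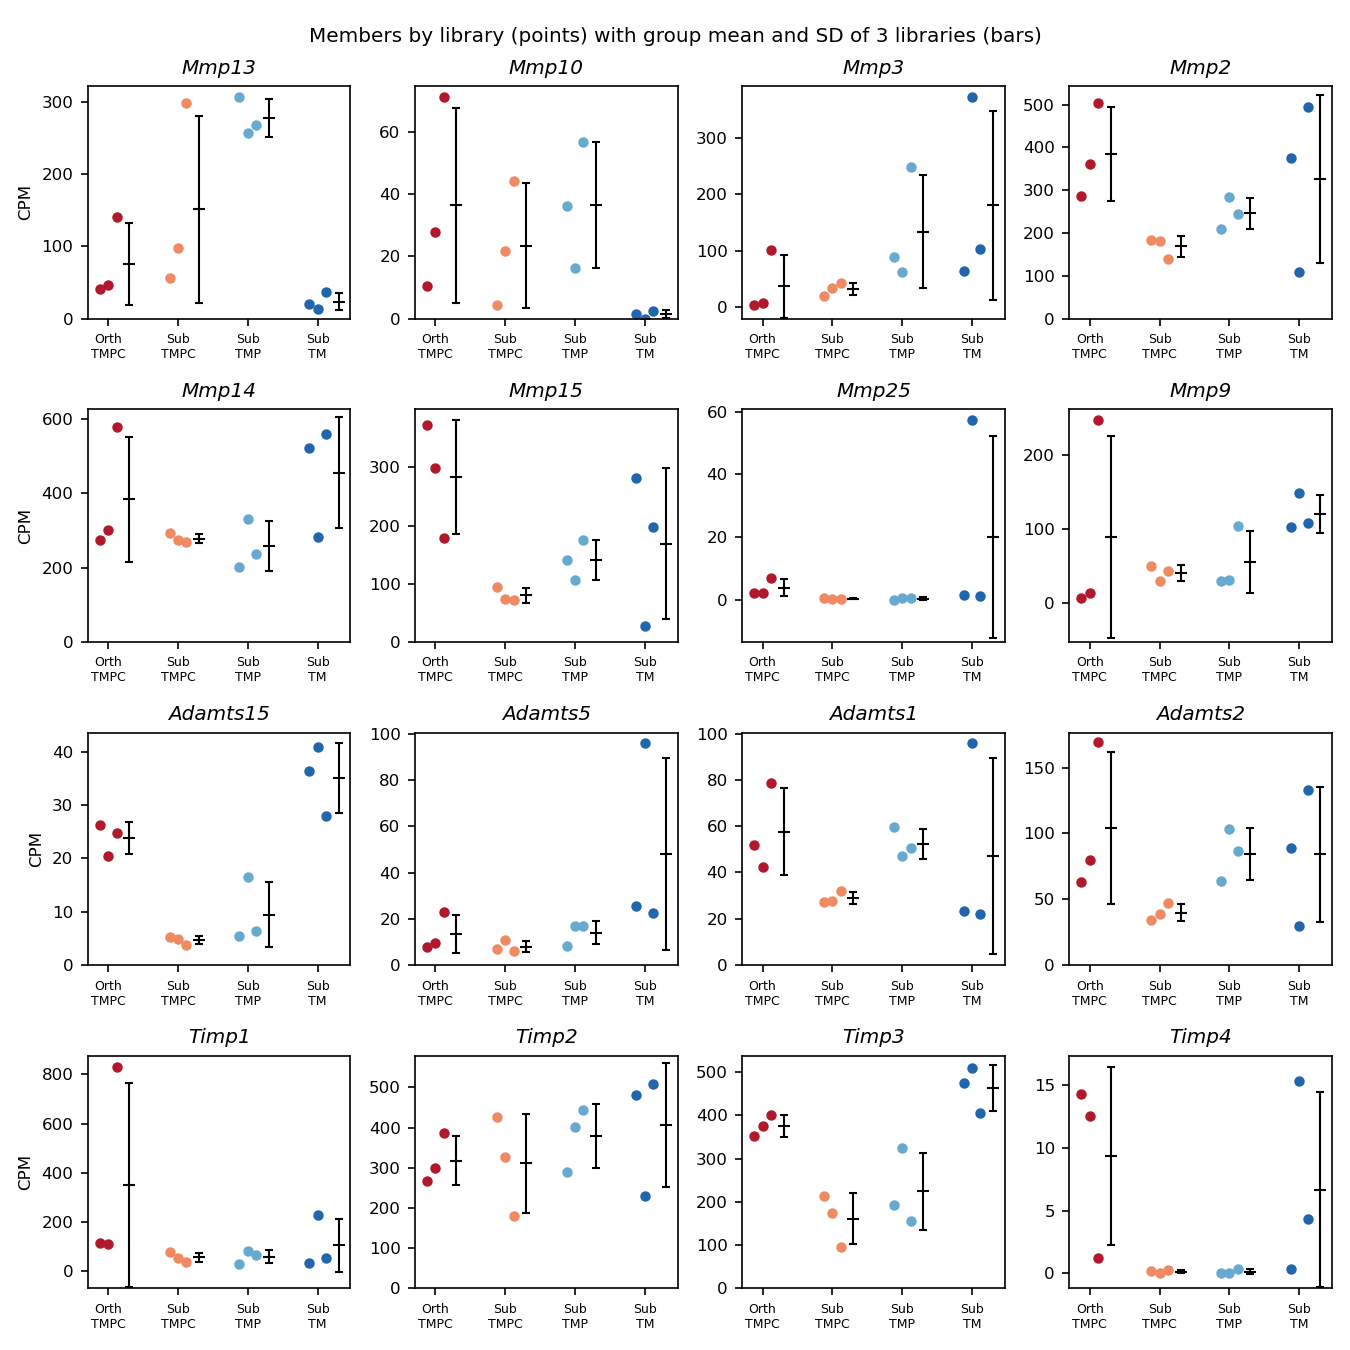
CPM of 16 members by group, with a point for each library and the mean and SD of 3 libraries as a bar. Adamts15 and Timp3 are higher in orthotopic TMPC and TM tumours than in subcutaneous TMPC tumours (20.4 to 40.9 CPM against 3.84 to 5.25 CPM for Adamts15). The TMP libraries reach 16.4 CPM for Adamts15 and 325 CPM for Timp3. Timp1 has a single library far above the rest in orthotopic TMPC tumours, as Mmp25 has in TM tumours.

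The other genes of the pathway were taken from lists of partners. AP-1 and related regulators of Mmp genes held 12 genes, all tested. Fos was at 108, 92.4 and 72.8 CPM in orthotopic TMPC tumours, at 20.1, 31.3 and 26.4 CPM in subcutaneous TMPC tumours, at 38.0, 28.1 and 35.0 CPM in TMP tumours, and at 159, 111 and 72.5 CPM in TM tumours. The orthotopic TMPC and TM tumours were above the rest, without overlap. Fos rose with the orthotopic site (1.88 ± 0.24, adjusted p = 0.00905) and fell in TMP (-1.81 ± 0.30, adjusted p = 0.00594) and TMPC tumours (-2.20 ± 0.30, adjusted p = 0.00200) against TM, in every fit that left out a library.

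Fosl1, another AP-1 subunit, had the opposite order between genotypes. It was at 5.94, 1.31 and 1.54 CPM in subcutaneous TMPC tumours, at 3.67, 1.98 and 2.51 CPM in TMP tumours, and at 0.313, 0.345 and 0.181 CPM in TM tumours. The TM libraries were the lowest, near the level of 3 counts. Mmp13 and Mmp10 were also lowest in TM tumours, while Mmp3 and Mmp7, which share the AP-1 motif, were not. The part of Fosl1 in the values of these Mmp genes was not tested. Fosl1 rose in TMP over TM tumours (3.21 ± 0.72, adjusted p = 0.0166, lost without TMP replicate 1, adjusted p = 0.0587) and in TMPC over TM tumours (3.31 ± 0.73, adjusted p = 0.0108, kept in all 9 such fits). Of the 12 regulators, 3 rose with the orthotopic site (Junb 1.22, Fos, and Fosb 1.07), 1 rose and 1 fell in TMP against TM tumours, and 1 rose and 3 fell in TMPC against TM tumours (Fos, Junb -0.91 and Rela -0.49). The calls of Junb held in every fit that left out a library, that of Fosb was lost in all 6 (adjusted p up to 0.138) and that of Rela in 8 of 9 (adjusted p up to 0.144).

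Reck, a membrane-anchored inhibitor of Mmp2, Mmp9 and Mmp14, moved in the direction of Timp3. It was at 7.79, 6.69 and 7.68 CPM in orthotopic TMPC tumours, at 3.40, 2.83 and 2.31 CPM in subcutaneous TMPC tumours, at 4.15, 3.13 and 4.41 CPM in TMP tumours, and at 8.80, 18.5 and 12.7 CPM in TM tumours. No orthotopic or TM library overlapped the subcutaneous TMPC and TMP libraries. Reck rose with the orthotopic site (1.44 ± 0.34, adjusted p = 0.0266, lost in 4 of 6 fits that left out a library, adjusted p up to 0.0941) and fell in TMP (-1.84 ± 0.37, adjusted p = 0.0118) and TMPC tumours (-2.29 ± 0.38, adjusted p = 0.00370) against TM in all 9 such fits. Among the 12 inhibitors, partners and substrates tested, 4 rose with the orthotopic site, 1 rose and 3 fell in TMP against TM tumours, and 2 rose and 5 fell in TMPC against TM tumours. Acan (aggrecan, a substrate of Adamts5 and Adamts15) was the gene that rose in TMP over TM tumours, at 37.1, 15.0 and 105 CPM in TMP tumours and at most at 0.135 CPM in TM tumours (adjusted p = 0.0161).

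In the plasminogen system, whose protease plasmin activates Mmp precursors, 3 of 7 genes tested rose with the orthotopic site. Among them was the activator Plat at 157, 123 and 116 CPM in orthotopic TMPC tumours and at 73.3, 32.7 and 41.3 CPM in subcutaneous TMPC tumours (1.50 ± 0.32, adjusted p = 0.0212, lost in 4 of 6 fits that left out a library, adjusted p up to 0.0707). The other genes that rose were inhibitors with their highest level in orthotopic replicate 3. Their calls were lost in 6 of 6 and in 5 of 6 such fits. Of the 11 proprotein convertases and Adams tested, 3 rose with the orthotopic site, 1 rose and 2 fell in TMP against TM tumours, and 3 fell in TMPC against TM tumours, among them Adam19 (-1.18 ± 0.27, adjusted p = 0.0125). No gene of the 4 lists passed in TMPC against TMP tumours. Beside the counts of these lists, 14% of all genes tested rose with the orthotopic site. In TMP against TM tumours 14.3% rose and 13.4% fell, and in TMPC against TM tumours 18% rose and 17.8% fell.

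The libraries carried these counts unequally. For the site comparison, 15 members passed without orthotopic replicate 3, all 10 named above among them, and 5 and 1 passed without orthotopic replicates 1 and 2. Leaving out subcutaneous TMPC replicates 1, 2 and 3 left 7, 2 and 3 members. The counts over all genes moved as well. They were 1221, 387 and 4789 without orthotopic replicates 1, 2 and 3. Without subcutaneous TMPC replicates 1, 2 and 3 they were 3510, 1648 and 2094. For TMP against TM tumours, 8, 11 and 7 members passed without TM replicates 1, 2 and 3, and 2, 3 and 2 passed without TMP replicates 1, 2 and 3. The fit shares its spread with the TMPC libraries, without which 8, 4 and 5 members passed. Over all genes, 3610, 4885 and 3593 passed without TM replicates 1, 2 and 3, and 1550, 2132 and 1870 without those of TMP. Without those of TMPC 4409, 3544 and 3647 genes passed. For TMPC against TM tumours, 13, 14 and 11 members passed without TM replicates 1, 2 and 3, 9, 5 and 5 without TMPC replicates 1, 2 and 3, and 10, 10 and 12 without TMP replicates 1, 2 and 3. The genes that passed in these fits were 4850, 6390 and 4794 without the TM replicates. Without those of TMPC they were 4729, 3414 and 3777, and without those of TMP 4896, 4838 and 4616. Of the 46 genes, 20 passed in at least 1 comparison, 7 in at least 2, and 26 in none, of which Mmp1a, Mmp1b, Mmp7, Mmp20, Mmp21 and Mmp24 passed the filter on low counts in no comparison. The comparisons share libraries, and the share of all genes that passed in at least 1 or 2 of them was not computed. These counts only account for the members and are not read as a result about them.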

How the data were processed

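Titles placed 12 bulk libraries in 4 groups of 3 and numbered the replicates. The 2 single-cell samples are not analysed here. STAR 2.6.0, DESeq2, Seurat 3 and the build mm10 appear in the submitters' processing notes without roles. How reads were assigned to genes, with which annotation and strand setting, is not given in the sources used here.

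Gene-level counts, as whole numbers, were deposited by the authors in 2 tables, one of the 9 subcutaneous libraries and one of the 6 TMPC libraries. Beside them the authors deposited normalized counts, a signal of counts divided by size factors per the file headers, which served only to check the alignment of entries. Their comparison columns were not used. Both tables hold 24421 entries, but their symbols differ in 12131 entries, from entry 12291 on. The counts of the shared TMPC libraries were equal in all 24421 entries by position. Normalized values matched counts (within 0.01 reads after scaling) for 14200 of 24419 genes by the symbols as deposited and for 24417 of 24417 by position, so symbols of the TMPC table were used by position for both. No per-sample column was left unmapped, and 0 entries named no gene.

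CPM used TMM factors over the 12 libraries, with mean ± SD over 3 libraries. Tests were edgeR 4.0.16 quasi-likelihood fits in R 4.3.3 on the deposited counts (TMM, filterByExpr, Benjamini-Hochberg over all genes tested, threshold 0.05), with 9 subcutaneous libraries sharing one spread and 6 libraries in the site fit. The code was tested on simulated data. Exon lengths came from GENCODE M21. DESeq2 1.42.0, other scaling, no filter, a replicate block, other sets of libraries and leaving out each library were the alternatives. Libraries of a group differed beyond counting noise, so none was taken as a repeat of another.

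Values by library are given for members past the threshold, for all Timps and for the 6 members highest in CPM, and for a few more whose values were seen first (Mmp7, Mmp8, Mmp12 and Mmp28). Of each partner list up to 3 genes with the smallest adjusted p are named, besides genes added after their values were seen. The members and lists were chosen with earlier results of these data known. The values of 1 gene of the partner lists are not reported here, although the counts over its list include it.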

Additional observations from a re-analysis of the deposited data

How the results depend on the processing

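Every alternative kept the direction of all 29 log2 fold changes of members that passed. All 29 stayed past the threshold with DESeq2's size factors as scaling, and 27 with DESeq2's own test, 27 without the filter on low counts and 20 with all 12 libraries in the fit. With the replicate number as a block 14 stayed and 15 were lost. With only the 2 groups in the fit, run for the subcutaneous comparisons, 10 stayed and 8 were lost. Of the 29, 6 passed under every alternative (Adamts15 between the sites, Mmp13 in TMP and in TMPC against TM, and Adamts15, Mmp27 and Timp3 in TMPC against TM), and 10 passed under every alternative that keeps all libraries. All 88 group means of CPM stayed within 1 SD when computed per total count.

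Between the sites, DESeq2 called 6372 genes, against 4204 in edgeR, and the fit with all 12 libraries called 6 members, against 10. Leaving out a library gave 387 to 4789 genes and 1 to 15 members. For TMP against TM tumours, 14 members passed in DESeq2 and 3 with the libraries of these 2 groups alone, against 7. Leaving out a library gave 1550 to 4885 genes and 2 to 11 members. For TMPC against TM tumours, the 2 groups alone gave 3536 genes and 7 members, against 5469 and 12. Leaving out a library gave 3414 to 6390 genes and 5 to 14 members. For TMPC against TMP tumours, DESeq2 called 17 genes and leaving out a library gave 0 genes and 0 members. The causes were not tested.

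The replicate numbers do not pair the samples by the labels, and deviations of same-numbered libraries correlated from -0.441 to 0.273. In no pair of groups did every library lie closest to its own number. Between TM and TMP tumours 5 of 6 libraries did, with correlations of 0.232, 0.273 and 0.082 for replicates 1, 2 and 3. Whether these replicates shared a batch was not tested. With the replicate number as a block, 1777 genes and 4 members passed between the sites, 4 members in TMP and 8 in TMPC against TM tumours. Among them, Adamts12 between the sites and Timp3 in TMP against TM tumours had not passed without the block. The block turned uncalled values of Mmp3 (-1.21) and Mmp9 (-0.54) between the sites and of Timp1 (0.12) in TMPC against TMP tumours.

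Leaving out a library turned the sign of some uncalled log2 fold changes. Between the sites the ranges were -0.19 to 0.37 for Timp2, -2.56 to 0.80 for Mmp3 and -1.91 to 1.72 for Mmp9. In TMP against TM tumours they were -1.28 to 0.42 for Timp1, -0.42 to 0.04 for Timp2, -0.80 to 0.29 for Mmp15 and -0.25 to 1.17 for Adamts1. For Timp1 they were -0.37 to 0.26 in TMPC against TMP and -1.32 to 0.36 in TMPC against TM tumours. A gene needs about 3 counts, or 0.142 to 0.181 CPM, to be told from 0 at these depths, which limits Mmp27, Timp4, Adamts18, Adamts19 and Adamts20.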
